A study of Homo sapiens with 8 samples.

Results

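In one pair of clones of the breast cancer line SK-BR-3, 75 genes were shifted the same way in both clones without mir-141 and lay near wild type in the clone without mir-200c alone. Of these, 49 were higher and 26 were lower, out of 9245 rows of the deposited table. A gene belonged to the set when its log2 ratio to wild type was at least 0.5 in both the mir-141 knockout and the double knockout of experimental set 1, or at most −0.5 in both, and lay within 0.3 of 0 in the mir-200c knockout. The choice left out 4 genes by name, of which 2 met these limits. The genes were chosen by the 3 ratios of set 1, so these are given as a description without a test. They also share 1 wild-type library as denominator. Of the higher genes, 18 lay along the long arm of chromosome 18.

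SK-BR-3 is an established human line with amplified ERBB2. TALENs, nucleases built to cut at a set place in the genome, were used to delete mir-141, mir-200c or both. Polyadenylated RNA was sequenced in 8 libraries, with 1 library per genotype in each of 2 experimental sets. Set 1 held wild-type cells, mir-141 knockout clone 23, mir-200c knockout clone 11 and double knockout clone 55, and set 2 held wild-type cells and clones 10, 29 and 61 in the same order of genotypes. No treatment is named, every knockout library is 1 clone, and clone, genotype and set cannot be told apart within set 1. Each deposited value is a log2 ratio, with a knockout clone over wild-type cells from the same set. They hold no expression level and no count, so depth is unknown, presence of an epithelial or other cell marker could not be checked by level, and no interval that needs depth is given. Unless stated otherwise, 3 values after a gene are its set 1 ratios after loss of mir-141, of mir-200c and of both, in that order.

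A microRNA guides the silencing machinery to messenger RNAs that pair with its seed, the bases near its 5′ end, most often in the 3′ untranslated region (3′ UTR), and lowers their stability and translation. As members of the mir-200 family, both are known in epithelial cells for holding back ZEB1 and ZEB2, repressors of epithelial genes. Direct targets are therefore expected among genes that are higher after a knockout, while lower genes are more often reached indirectly. The mature sequences are shown because the choice of genes turns on a difference between both microRNAs. They are RefSeq sequences (GRCh38.p14), 5′ to 3′, with the seed (bases 2 to 8) in capitals.
hsa-miR-141-3p: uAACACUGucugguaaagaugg
hsa-miR-200c-3p: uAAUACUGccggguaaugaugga
The seeds differ at 1 base, C4U, counted from 1 at the 5′ end with the base of miR-141-3p first. Both microRNAs lie on the forward strand of chromosome 12, miR-200c-3p at 6963742 to 6963764 and miR-141-3p at 6964155 to 6964176.

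The 49 genes that were higher had a median ratio of 0.63 in the mir-141 knockout (0.51 to 1.25), 0.07 in the mir-200c knockout (−0.29 to 0.30) and 0.86 in the double knockout (0.50 to 1.49). The 26 genes that were lower had medians of −0.65 (−1.17 to −0.51), −0.06 (−0.29 to 0.24) and −0.77 (−1.73 to −0.52). Over all rows the medians were −0.01, −0.02 and −0.03. The limits were met by 0.541% of all rows in the higher direction and by 0.292% in the lower direction, 0.833% in all, with the genes left out by name counted. Most shifts were moderate: 1 higher and 1 lower gene lay beyond 1 in both clones that lack mir-141. The double knockout was further from wild type than the mir-141 knockout for 38 of the 49 higher genes and for 17 of the 26 lower genes. Of the higher genes, this held for 17 of 18 on chromosome 18 and for 21 of 31 elsewhere. Over all rows the ratios also spread more widely in the double knockout (standard deviation 0.40) than in the mir-141 knockout (0.31). No share over all rows is at hand for this count, and an added effect of the second loss was not tested.

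**Figure D1:**
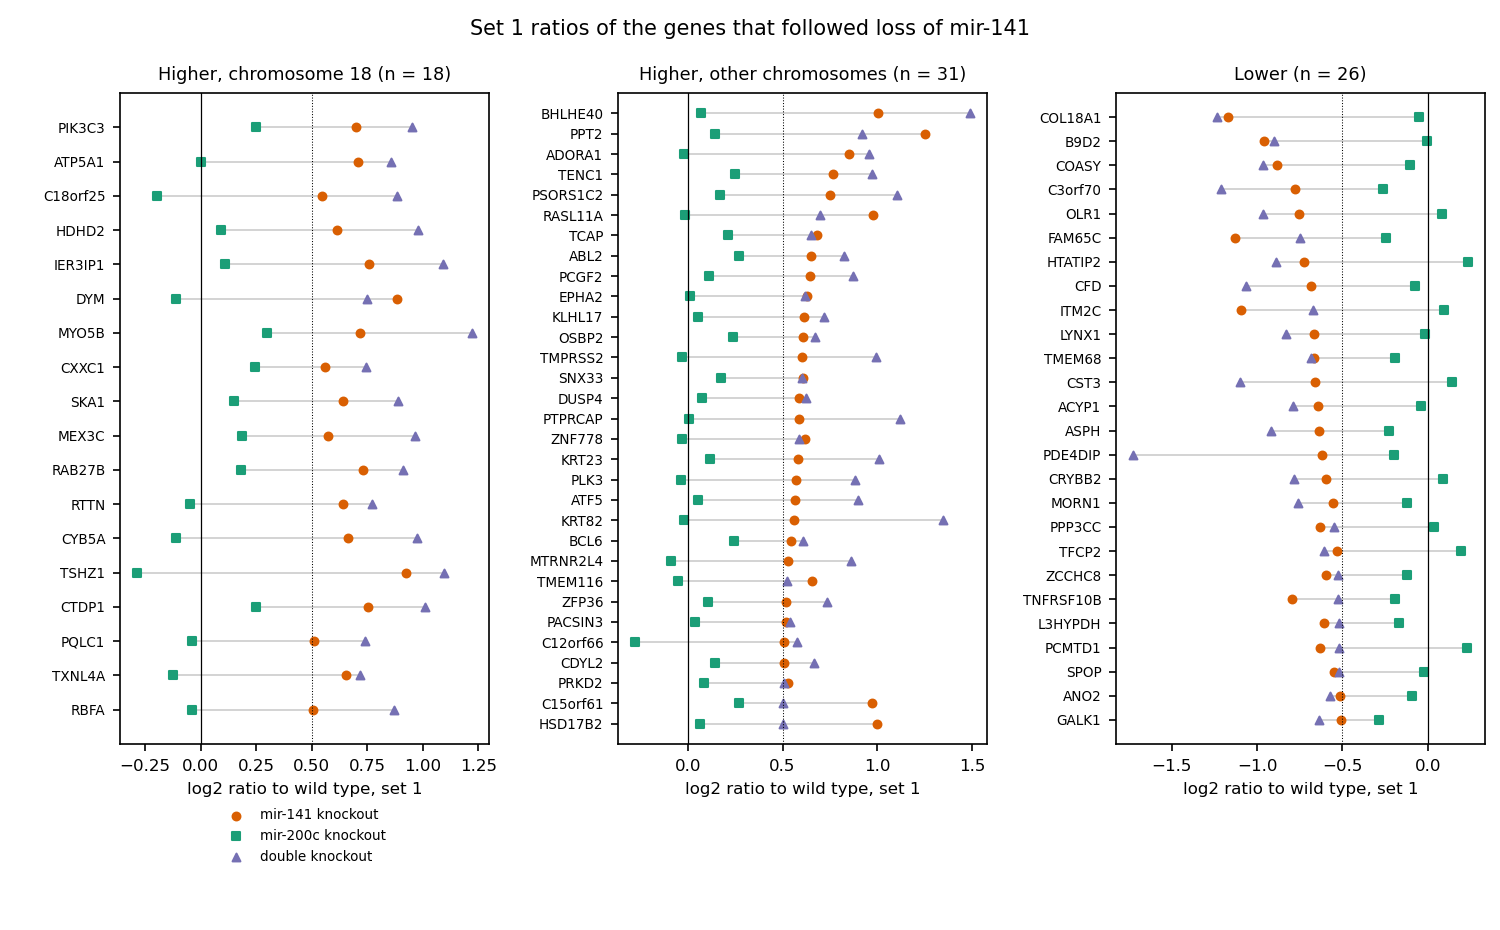
Log2 ratio to the wild type of set 1 (horizontal axis) for each of the 75 genes (rows), in 3 panels: 18 higher genes of chromosome 18 in order of position, 31 higher genes of other chromosomes and 26 lower genes. Circles are the mir-141 knockout, squares the mir-200c knockout and triangles the double knockout, 1 library each; the dotted line marks 0.5 or −0.5. Circles and triangles lie beyond the dotted line by the way the genes were chosen, and the spread of the triangles is widest for the lower genes, where PDE4DIP reaches −1.73.

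Genes were not spread evenly over the genome. Chromosome 18 held 18 of the 49 higher genes, which is 15.3% of its 118 measured genes, against 0.34% of the 9108 measured genes on the other chromosomes. No other chromosome exceeded 1.03% in the higher direction. No lower gene lay on chromosome 18. Chromosome 8 held 6 lower genes among 305 measured (1.97%), the highest share of lower genes on any chromosome. Positions here and below are from GENCODE release 29 on the build GRCh38, while the deposited table gives none.

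**Figure D2:**
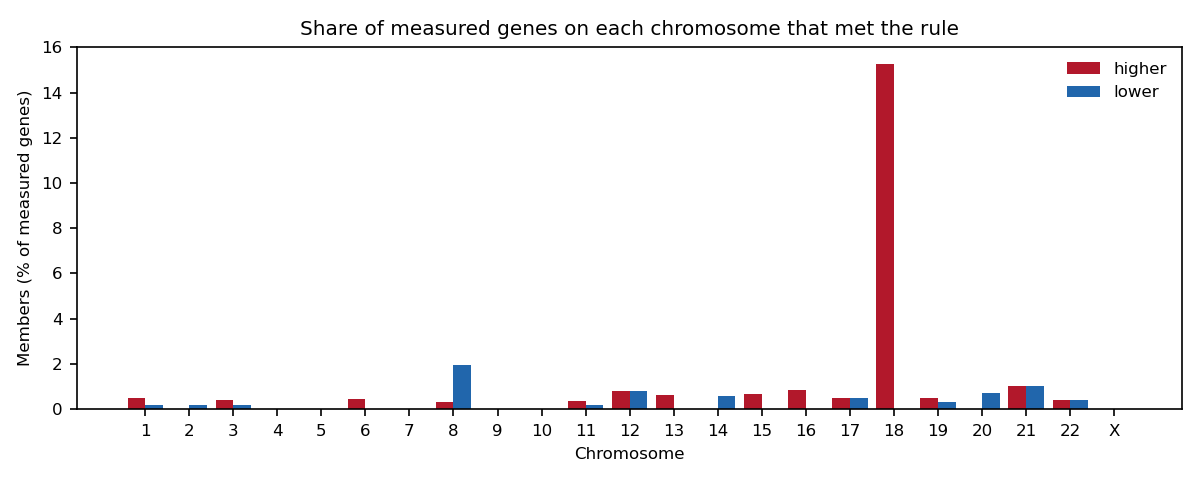
Share of the measured genes on each chromosome (vertical axis, percent) that were chosen as higher (red) or lower (blue). Chromosome 18 reaches 15.3% for higher genes; the next highest bar is the 1.97% of lower genes on chromosome 8.

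A run was counted where at least 3 genes of one direction had at most 5 other measured genes between neighbours. There were 2 runs of higher genes, both on chromosome 18, and 0 of lower genes. The first run had 11 higher genes among 20 measured, from PIK3C3 to RAB27B (41955206 to 54895516). The second had 7 among 13 measured, from RTTN to RBFA (70003031 to 80046397). The 9 other genes inside the first run had medians of 0.63, 0.10 and 0.98, and the 6 inside the second had 0.36, 0.22 and 0.94. Of these others, all 9 of the first run were above 0 in both clones that lack mir-141, and in the second run 5 of 6 were above 0 in the mir-141 knockout and 6 of 6 in the double knockout.

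Taken from PIK3C3 to the last measured gene, ADNP2, a bound set after the values were seen, the stretch covered 38.2 Mb (41955206 to 80147523) and 49 measured genes. Of them, 48 were above 0 in both the mir-141 and the double knockout, the 18 chosen genes by the rule. Of the 31 others, 30 were, against 32.5% of the genes on other chromosomes. HSBP1L1 was the exception (−0.06, −0.21 and 0.07), and its exons overlap those of TXNL4A on the other strand. The medians of the stretch were 0.57, 0.00 and 0.87. The 31 genes of the stretch that were not chosen had medians of 0.48, −0.03 and 0.77. The 69 measured genes of chromosome 18 before the stretch, from USP14 to TPGS2 (158383 to 36829216), had medians of 0.01, 0.08 and 0.05, and 27 of them were above 0 in both clones. Within the stretch the double knockout was above the mir-141 knockout for 47 of 49 genes, with a median difference of 0.25, while over the genes of other chromosomes that median was −0.02.

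**Figure D3:**
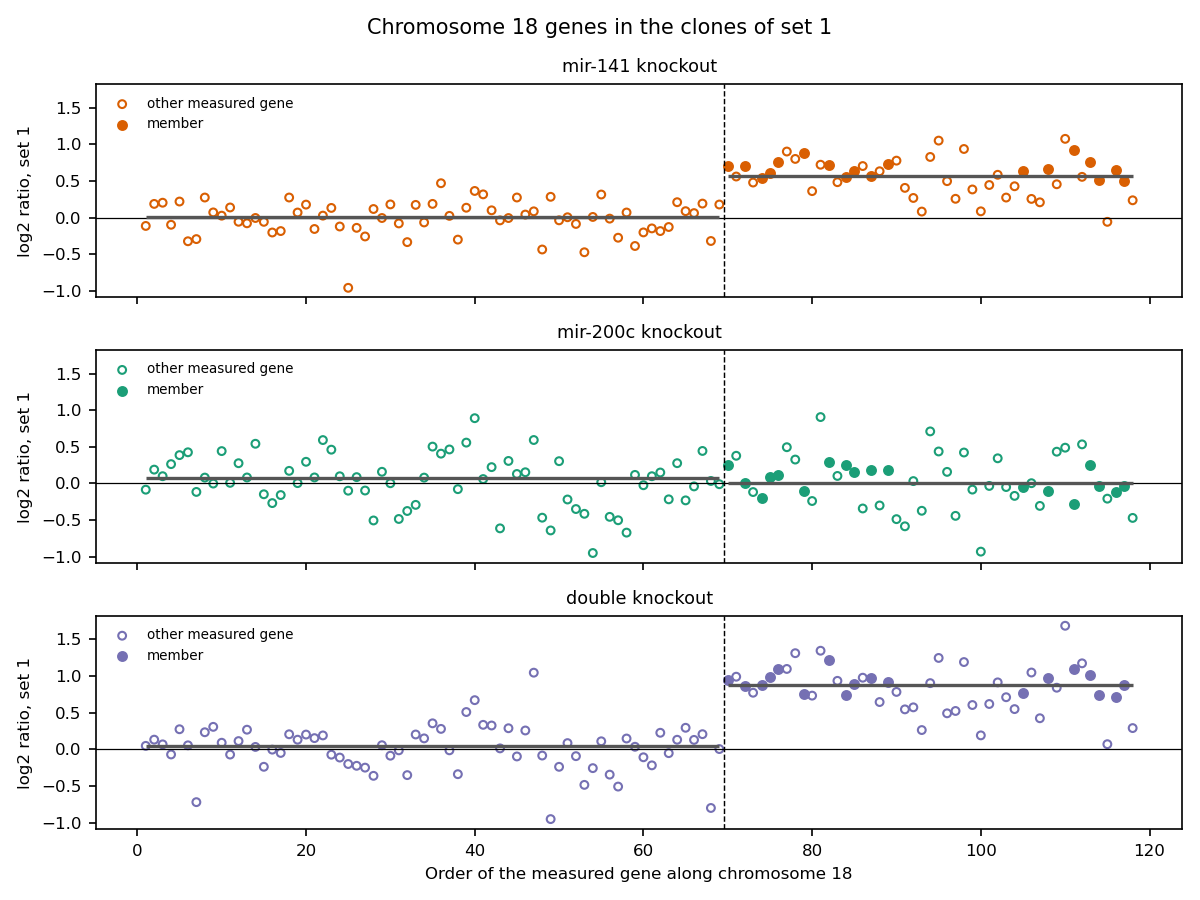
Log2 ratio of set 1 (vertical axis) for the 118 measured genes of chromosome 18 in their order along the chromosome (horizontal axis), after loss of mir-141, of mir-200c and of both. Filled points are chosen genes, open points other measured genes, grey lines the medians on either side of the dashed line that marks PIK3C3. The line steps from 0.01 to 0.57 in the mir-141 knockout and from 0.05 to 0.87 in the double knockout, and goes from 0.08 to 0.00 in the mir-200c knockout.

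Genes of this stretch missed the choice mainly through the mir-200c knockout or through smaller shifts. In all, 31 of its 49 genes were at least 0.5 in both clones that lack mir-141, of which 10 were above 0.3 and 3 below −0.3 in the mir-200c knockout. SMAD2, a transducer of TGF-beta signals, had 0.90, 0.49 and 1.10. MALT1, a paracaspase of NF-kB signalling, had 1.05, 0.44 and 1.25. ME2, a mitochondrial malic enzyme, had 0.70, −0.34 and 0.98. PHLPP1, a phosphatase that acts on AKT and is described as a target of mir-141, had 0.45, −0.03 and 0.62. Copy number of the DNA was not tested.

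The chosen genes of the stretch serve varied tasks. PIK3C3 encodes the class III phosphatidylinositol kinase of autophagy and endosomes and had 0.70, 0.25 and 0.95. MYO5B, a motor for recycling endosomes in epithelial cells, had 0.72, 0.30 and 1.22, and RAB27B, a GTPase of secretory vesicles, had 0.73, 0.18 and 0.91. MYO5B had the widest gap between the mir-141 and the double knockout (0.51) of the 18. DYM, a Golgi-associated protein, had 0.88, −0.11 and 0.75 and was the only chosen gene of chromosome 18 with a lower value in the double than in the mir-141 knockout. IER3IP1, an endoplasmic reticulum protein, had 0.76, 0.11 and 1.09.

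Among its nuclear and cell division genes, TSHZ1, a zinc finger homeobox protein, had 0.92, −0.29 and 1.10, the highest ratio of these 18 in the mir-141 knockout. CTDP1, the phosphatase of the RNA polymerase II tail, had 0.75, 0.25 and 1.01. CXXC1, a CpG-binding subunit of histone methyltransferase complexes, had 0.56, 0.25 and 0.74. SKA1 of the kinetochore had 0.64, 0.15 and 0.89, and RTTN, which acts in centriole assembly, had 0.64, −0.05 and 0.77. MEX3C, an RNA-binding ubiquitin ligase, had 0.57, 0.19 and 0.97, and TXNL4A of the spliceosome had 0.66, −0.12 and 0.72. The mitochondrial and metabolic genes were ATP5A1, the alpha subunit of ATP synthase (0.71, 0.00 and 0.86), RBFA, a mitochondrial ribosome assembly factor (0.51, −0.04 and 0.87), and CYB5A, cytochrome b5 (0.66, −0.11 and 0.98). HDHD2 (0.61, 0.09 and 0.98), C18orf25 (0.55, −0.20 and 0.88) and PQLC1 (0.51, −0.04 and 0.74) complete the 18.

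The neighbours of a gene were examined next. For each gene the median of the 5 measured genes on either side was taken, a measure added after the values were seen, and called shifted when it was at least 0.2 in size with the same sign in the mir-141 and the double knockout. Flanks were shifted upwards for 18 of 18 higher genes on chromosome 18 and for 0 of the 31 elsewhere, against 1.25% of all positioned rows. On chromosome 18 the neighbours include other chosen genes. The 31 had median flanks of 0.02, 0.02 and −0.01. Flanks were shifted downwards for 2 of those 31, RASL11A on chromosome 13 (chromosome medians −0.13, −0.02 and −0.28) and OSBP2 on chromosome 22 (−0.10, −0.34 and −0.28), and for 1 of the 26 lower genes, ASPH, against 1.51% of all rows. Outside chromosome 18, most chosen genes had neighbours near wild type.

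The 31 higher genes of other chromosomes had medians of 0.61, 0.07 and 0.72. BHLHE40 (chromosome 3, 4979116 to 4985323), a helix-loop-helix repressor that responds to hypoxia and the circadian clock, had 1.00, 0.07 and 1.49, and was the highest of them in the double knockout. PPT2 (chromosome 6, 32153441 to 32163680), a lysosomal thioesterase, had 1.25, 0.14 and 0.92. ADORA1 (chromosome 1, 203090654 to 203167405), the adenosine A1 receptor, had 0.85, −0.02 and 0.96. For ADORA1 the mir-200c knockout was within 0.02 of wild type, while both other clones were high.

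Genes with roles in adhesion and signalling included these. TENC1, a tensin of focal adhesions named TNS2 in the annotation, had 0.77, 0.25 and 0.97. ABL2, a tyrosine kinase of the actin cytoskeleton, had 0.65, 0.27 and 0.82. EPHA2 (chromosome 1, 16124337 to 16156087), a receptor tyrosine kinase for ephrins, had 0.63, 0.01 and 0.62, nearly the same value in both clones that lack mir-141. RASL11A, a Ras-like GTPase, had 0.98, −0.02 and 0.70. DUSP4, a phosphatase that switches off MAP kinases, had 0.59, 0.07 and 0.62. PLK3, a stress-activated polo-like kinase, had 0.57, −0.04 and 0.88.

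Of the regulators of transcription and RNA, PCGF2, a Polycomb protein, had 0.65, 0.11 and 0.87. ZFP36, tristetraprolin, which marks AU-rich messenger RNAs for decay, had 0.52, 0.11 and 0.74. ATF5, BCL6, ZNF778 and CDYL2 had ratios from 0.51 to 0.62 in the mir-141 knockout and from 0.59 to 0.90 in the double knockout. The keratins differed in size between clones: KRT23 had 0.58, 0.12 and 1.01, and the hair keratin KRT82 had 0.56, −0.02 and 1.35. TMPRSS2, a serine protease of the epithelial surface, had 0.60, −0.03 and 0.99. TCAP, a titin-binding protein known from muscle, had 0.68, 0.21 and 0.65, and PSORS1C2 had 0.75, 0.17 and 1.10. MTRNR2L4 has near-identical copies elsewhere in the genome and is uncertain (0.53, −0.09 and 0.86). KLHL17, OSBP2, PTPRCAP, SNX33, TMEM116, PACSIN3 and C12orf66 are also among the 31, within the ranges given above.

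HSD17B2, which oxidises oestradiol, and C15orf61 were the higher genes whose ratio was lowest in the double relative to the mir-141 knockout, with 1.00 and 0.50, and 0.97 and 0.50, in the mir-141 and double knockout. They also lay closest to the limit of 0.5, with PRKD2 at 0.53 and 0.50. Just outside were PHGDH (0.504 and 0.498), SCMH1 (0.55 and 0.495) and ANO1 (0.57 and 0.494). At the other limit, MYO5B (0.299), TSHZ1 (−0.287) and C12orf66 (−0.279) were the nearest inside in the mir-200c knockout. MBD2 (−0.301), HIST1H2BC (0.303) and CX3CR1 (0.308) were the nearest outside.

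Among the 26 lower genes, COL18A1 (chromosome 21, 45405137 to 45513720), the basement membrane collagen that releases endostatin, had −1.17, −0.05 and −1.24. It was the only lower gene beyond −1 in both clones that lack mir-141. Several others encode secreted or surface proteins. CST3, the secreted protease inhibitor cystatin C, had −0.66, 0.14 and −1.10. CFD, complement factor D, had −0.69, −0.08 and −1.07. OLR1 (chromosome 12, 10158301 to 10172138), a receptor for oxidised lipoprotein, had −0.76, 0.08 and −0.97. LYNX1, a modulator of nicotinic receptors, had −0.67, −0.01 and −0.83. ITM2C, a membrane protein, had −1.10, 0.10 and −0.67. TNFRSF10B, a death receptor for TRAIL, had −0.80, −0.19 and −0.52. In none of these did the mir-200c knockout reach 0.2 in size.

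Other lower genes encode enzymes and intracellular proteins. COASY (chromosome 17, 42561467 to 42566277), which completes coenzyme A synthesis, had −0.88, −0.11 and −0.97. B9D2 of the ciliary transition zone had −0.96, 0.00 and −0.90. HTATIP2 had −0.72, 0.24 and −0.89, with the mir-200c knockout on the other side of 0. FAM65C, named RIPOR3 in the annotation, had −1.13, −0.24 and −0.75, and C3orf70 had −0.78, −0.26 and −1.21. ACYP1, an acylphosphatase, had −0.64, −0.04 and −0.79. PDE4DIP, which anchors a phosphodiesterase at the Golgi and centrosome, had −0.62, −0.20 and −1.73, the largest gap between both clones. A second row of PDE4DIP, for another RefSeq transcript, had −0.13, 0.11 and −0.26, so its low ratio was seen in 1 of 2 rows. CRYBB2 (−0.60, 0.09 and −0.78) has a near-identical pseudogene and is uncertain. MORN1, PPP3CC, the phosphatase calcineurin's catalytic gamma subunit, TFCP2, ZCCHC8 and L3HYPDH complete the lower genes with those named next, all within the ranges given above.

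The lower genes of chromosome 8 were LYNX1, TNFRSF10B, PPP3CC, PCMTD1, TMEM68 and ASPH, of which 3 lay near each other: PCMTD1 (−0.63, 0.23 and −0.52), TMEM68 (−0.67, −0.19 and −0.68) and ASPH, an aspartate hydroxylase (−0.64, −0.22 and −0.92). These were 3 of 18 measured genes between 51817575 and 61714640. The bounds were set by the chosen genes. The 15 others there had medians of −0.23, −0.01 and −0.48, and 11 of them were below 0 in both clones that lack mir-141. All measured genes of chromosome 8 had medians of −0.07, −0.01 and −0.05. No share of all rows below 0 in both clones is at hand to set beside the 11, so the count is a description only. Of the 3 chosen genes, only ASPH had flanks that counted as shifted. This group counted as a run only when 10 other genes were allowed between neighbours. Near the limit of −0.5, GALK1 (−0.51 and −0.64), ANO2 (−0.51 and −0.57) and SPOP (−0.55 and −0.52) were nearest inside, and PEG10 (−0.497 and −0.74) and SLC51A (−0.495 and −1.13) were among the nearest outside. ANO2 lies 1.02 Mb from mir-141 and is the chosen gene closest to the edited locus.

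Exon bases of 21 of the 75 genes are shared with another protein-coding gene in the annotation, for 15 of them on the other strand. The sources used here do not say whether counting used strand, so reads of such partners may not have been told apart. COL18A1 with SLC19A1, TENC1 with SPRYD3, PLK3 with TCTEX1D4 and ATP5A1 with HAUS1 are examples.

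Sites for the microRNAs were counted in each gene's longest 3′ UTR in GENCODE 29, and all 75 genes have one. A site of 7 bases pairs with the seed (CAGTGTT for miR-141-3p, CAGTATT for miR-200c-3p) or with its first 6 bases followed by A (AGTGTTA and AGTATTA), and a site of 8 bases has both. Only the strand of the transcript was searched, and an 8-base site was counted once. At least 1 miR-141-3p site was found in 17 of 49 higher genes (34.7%) and 6 of 26 lower genes (23.1%), against 26.0% of 9207 rows with a 3′ UTR. For miR-200c-3p, which the choice of genes sets aside, sites were found in 16 higher genes (32.7%) and 4 lower genes (15.4%), against 24.1%. Longer 3′ UTRs hold more sites, and the median length was 1485 bases in higher genes, 1408 in lower genes and 1305 over all rows.

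By position, any miR-141-3p site was found in 33.3% of the 18 higher genes on chromosome 18 and 35.5% of the 31 elsewhere, counts given without a test. Sites of both microRNAs were present in 6 of the 18 (33.3%) and 3 of the 31 (9.68%), against 11.3% of all rows. Sites of miR-141-3p without any of miR-200c-3p were present in 0 of the 18 and in 8 of the 31 (25.8%), against 14.6% of all rows. These classes were counted in the longest 3′ UTR only. In the transcript with the deposited accession, 5 of 17 chromosome 18 genes (29.4%) and 8 of 30 others (26.7%) had any miR-141-3p site, against 22.6% of rows. The median 3′ UTR length was 2785 bases in the 18 and 878 in the 31. Per kilobase of 3′ UTR, miR-141-3p sites numbered 0.159 in the chromosome 18 genes, 0.296 in the other higher genes, 0.210 in the lower genes and 0.193 over all rows. For miR-200c-3p the densities were 0.199, 0.156, 0.147 and 0.182. In the longest 3′ UTR, ABL2 had 5 miR-141-3p sites and SNX33, IER3IP1, ASPH and PDE4DIP had 3 each. The transcript with the deposited accession held 3 in SNX33 and IER3IP1, 1 in ASPH and 0 in ABL2 and PDE4DIP.

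Sites of 8 bases for miR-141-3p were present in 4 higher genes (8.16%) and 2 lower genes (7.69%), against 5.43% of all rows. They are printed from the GENCODE 29 transcripts because they show the longest match to the seed among the chosen genes, with the site in capitals and 11 bases on either side, 5′ to 3′ on the transcript. Build and strand are GRCh38, minus for IER3IP1, ABL2, EPHA2 and ZCCHC8 and plus for ZNF778 and PDE4DIP.
EPHA2, chr1:16124443-16124472: ttctattctgtCAGTGTTAaagattttgtt
ABL2, chr1:179099432-179099461: tgaactgctaaCAGTGTTAaacttgatgta
IER3IP1, chr18:47155916-47155945: atctgattgctCAGTGTTAatagtagttca
IER3IP1, chr18:47154991-47155020: tataaacctgtCAGTGTTAactgcattaat
ZNF778, chr16:89235674-89235703: gccttggggagCAGTGTTAtgataccaaat
PDE4DIP, chr1:148983503-148983532: aggcttgcaaaCAGTGTTAtctggagagag
ZCCHC8, chr12:122471829-122471858: ttagtctcaggCAGTGTTAtcctgctctca
The first 4 genes were higher and the last 2 lower in both clones that lack mir-141. In the 3′ UTR of the transcript with the deposited RefSeq accession, miR-141-3p sites were found in 13 of 47 higher and 3 of 24 lower genes, against 22.6% of rows. The 8-base sites of ABL2, PDE4DIP and ZCCHC8 are not in that transcript, and EPHA2 had no transcript matched by accession. A match of these letters is a description and not a shown site of binding.

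In 31 pathway lists, 6 higher and 2 lower genes fell in 8 lists, so that 10.7% of the 75 genes were on a list, beside 6.05% of all rows. None of the 16 measured genes described as mir-141 targets was among the 75, where 0.833% of all rows met the limits, so a list of this size would seldom hold one. That list had medians of 0.08, 0.09 and 0.16. The list of outputs of ERK and ETS factors, genes switched on by growth factor signalling, had 10 measured members. Of these EPHA2 and DUSP4 met the limits, and medians were 0.30, −0.13 and 0.48. Its feedback phosphatase DUSP5 had 0.57, 0.47 and 0.42, the ETS factor ETV4 had 0.30, −1.07 and 0.52, and the immediate early gene IER3 had 0.31, −0.49 and 0.61. In that list 8 of 10 were above 0 in both clones that lack mir-141, against 32.9% of all rows. The exceptions were SPRY1 (0.11, 0.20 and −0.40) and SPRED2 (−0.01, −0.27 and 0.14). EPHA2 and DUSP4 are among the 8 by the way they were chosen. Such counts, here and below, use the values that chose the genes, and the lists were written with earlier results of these data known. They are a description and were not tested. For the wider list of immediate early genes, 18 of 21 were above 0 in both, with ZFP36 and DUSP4 among the chosen genes. Both counts overlap, because DUSP4, DUSP5, EGR1 and IER3 are on this list and on that of ERK and ETS outputs. Here the mir-200c knockout was mixed (median 0.23, with 15 of 21 above 0). Its highest value was that of JUN (0.68, 1.83 and 1.48) and its lowest that of EGR1 (0.51, −1.45 and 0.26).

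Basal keratins and markers had medians of 0.41, 0.32 and 0.80 over 11 measured members. Of these 11, 8 were above 0 in both clones that lack mir-141. They include KRT23, the only one to meet the limits and so above 0 by choice. KRT17 (0.94, 2.20 and 2.07) was high in the mir-200c knockout too, KRT81 (0.27, −0.83 and 0.80) was low there, and SFN had −0.47, 0.32 and −1.14. Of 14 measured p53 targets, PLK3 was a higher and TNFRSF10B a lower gene, and 4 were above 0 in both clones. The nuclear oxidative phosphorylation list had 47 measured members with medians of −0.06, −0.15 and −0.26. ATP5A1 was its only chosen gene, and it lies in the chromosome 18 stretch. The extracellular matrix list held COL18A1 and had medians of 0.04, 0.23 and 0.25.

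Set 2 gave the same measure in clones that the choice did not use. Across all rows its columns were unrelated to those of set 1, with Pearson correlations between −0.00224 and 0.0105 over 9 pairs of columns, while pairs within a set ran from 0.502 to 0.709 and share a wild type. Ratios of neighbouring genes were weakly correlated in set 1 (Spearman 0.0884, 0.0750 and 0.112, with chromosome 18 included). In set 2 they were hardly correlated (−0.00882, 0.0134 and 0.00185). Whether set 2 values stand beside the right gene names could not be settled here. They are therefore given as listed, and not as a check on the genes chosen in set 1.

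Of the 49 higher genes, 14 were above 0 in both set 2 clones that lack mir-141 (28.6%), against 31.9% of all rows. Of the 26 lower genes, 8 were below 0 in both (30.8%), against 40.2%. None of the 75 met the limits again in set 2, where 0.627% of rows did in the higher and 0.562% in the lower direction. These shares lie near or below those of all rows. By position, 8 of the 18 higher genes of chromosome 18 (44.4%) and 6 of the 31 others (19.4%) were above 0 in both. Set 2 values of the higher genes had medians of 0.02, −0.04 and −0.13, and those of the lower genes 0.11, −0.06 and 0.01. The 49 genes of the chromosome 18 stretch had 0.02, −0.01 and 0.02.

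**Figure D4:**
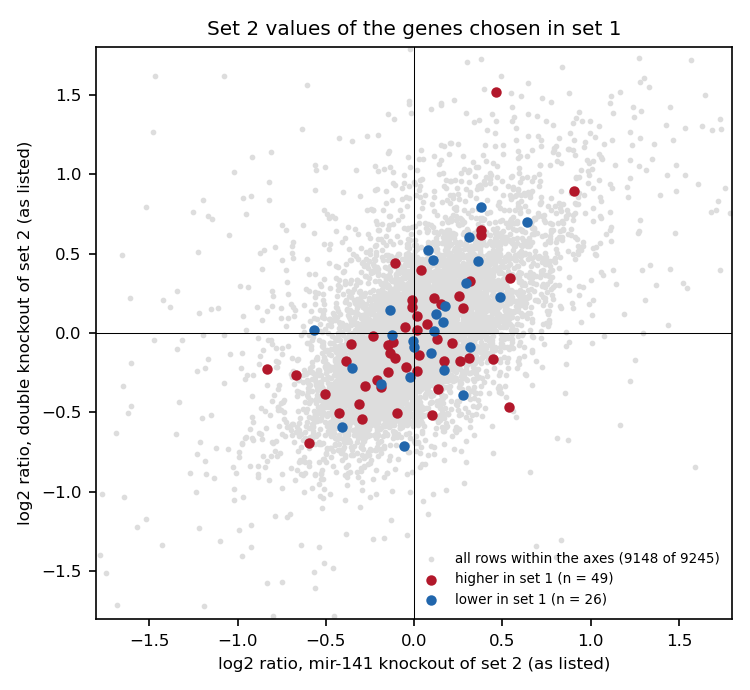
Set 2 log2 ratios, as listed, in the mir-141 knockout (horizontal axis) and the double knockout (vertical axis), 1 library each. Grey points are the 9148 of 9245 rows within the axes, red points the 49 genes higher in set 1 and blue points the 26 lower in set 1. Both colours spread over the grey cloud around 0, with 14 red points above 0 on both axes and 8 blue points below 0 on both.

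As listed, BHLHE40 had 0.17, −0.08 and −0.18 in set 2, PPT2 had −0.12, 0.10 and −0.06, and ADORA1 had −0.43, 0.01 and −0.50. EPHA2 was at 0.02, −0.11 and −0.24 there, DUSP4 at 0.03, −0.29 and −0.14, and COL18A1 at 0.48, 0.01 and 0.23. COASY had 0.12, −0.09 and 0.12, and OLR1 had 0.00, 0.05 and −0.09. PIK3C3 and MYO5B of chromosome 18 had −0.83, −0.21 and −0.23, and −0.05, −0.01 and −0.21. Among the higher genes, RBFA was highest in set 2 in the mir-200c and double knockout (0.46, 1.07 and 1.52) and PQLC1 in the mir-141 knockout (0.91, 0.82 and 0.89). Both were high in the mir-200c knockout of set 2 as well, unlike in set 1.

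A linear model of both losses, fitted with limma to the 4 libraries of set 2 over all rows, called 0 genes for loss of mir-141 at an adjusted p under 0.05 (percent of rows called: 0), with 770 rows at an unadjusted p under 0.05 (8.33%, of which 4.43% of rows above 0 and 3.89% below). Of the higher genes, 5 had an unadjusted p under 0.05 (10.2%) and 3 of these 5 were above 0. They were PSORS1C2 (estimate 0.35 ± 0.11 SE), MTRNR2L4 (0.40 ± 0.11) and RBFA (0.45 ± 0.11), beside ADORA1 (−0.47 ± 0.11) and TMPRSS2 (−0.34 ± 0.11). The 3 lower genes with such a p were CFD (0.60 ± 0.19), TMEM68 (0.49 ± 0.13) and SPOP (0.38 ± 0.11), which lay on the other side of 0 from set 1. For all 8 the adjusted p from limma was 0.571. This fit has 1 residual degree of freedom and uses set 2 values as listed, whose match to gene names is not settled. Its lack of calls does not show that the genes were alike in both genotypes. Over both sets, which includes the values that chose the genes, limma called 0 rows, with 476 at an unadjusted p under 0.05. That fit joins the sets row by row and so rests on the same unsettled match. Its lack of calls is not read as a result about the genes.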

How the data were processed

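The authors deposited log2 ratios, knockout over wild type within a set, per the file headers, in 6 columns for 9245 RefSeq entries. Columns of samples outside the series numbered 0. TopHat2 and GRCh37.p10 were used, per the submitters' processing notes. The sources used here do not give counting, scaling or filters. No filter on level was possible.

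The genes and lists were chosen with earlier results of these data known. Rows were matched to GENCODE release 29 (9226 rows, 9011 by accession) for positions and 3′ UTRs. limma 3.58.1 in R 4.3.3 fitted an additive model of both losses to all rows, with the wild type at 0 and Benjamini-Hochberg adjustment: on set 2 alone (1 residual degree of freedom) and on both sets with the set as replicate block (4). The set, named in the labels and shared by each ratio's numerator and denominator, pairs the libraries. No genotype is repeated within set 2. P-values and SE of the fit to set 2 therefore rest on how far the double knockout departs from the sum of both losses, moderated over all rows. They do not measure the spread between clones of a genotype. Over both sets they also take in differences between the clones of set 1 and set 2. Fits were tried on simulated data and run counts on a planted example. The simulated rows matched between sets, and the simulated shifts were larger than those of most chosen genes. This trial therefore does not show how the fits perform on the deposited values.

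Named genes were the 15 higher and 15 lower with the largest weaker ratio of both clones that lack mir-141, those on a list or in a run, and the 3 rows nearest inside and outside 0.5 in each direction. Further genes were named after their values were seen. Alternatives covered limits, centring, site length, run rules and left-out libraries.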

Additional observations from a re-analysis of the deposited data

How the results depend on the processing

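With limits of 0.4 or 0.75 in place of 0.5, 83 or 9 genes were higher and 57 or 5 lower. Limits of 0.2 or 0.4 for the mir-200c knockout gave 37 or 65 higher and 20 or 32 lower genes, and median centring gave 55 and 21. Without chromosome 18, a setting added after the values were seen, 31 higher genes were counted. The limit of 0.75 left only 9 higher and 5 lower genes. Of these, 44.4% and 60% had the same sign in both set 2 clones that lack mir-141. Over all rows, 31.9% were above 0 in both and 40.2% below 0 in both. At the limit of 0.5, centring of set 2 gave shares of 32.7% and 15.4%, with no centred share over all rows beside them. Shares of so few genes, in values whose match to gene names is not settled, are a description only. With 8-base sites only, 4 higher and 2 lower genes had a miR-141-3p site, and in the matched transcript 3 lower genes did. Allowing 10 genes between neighbours gave 1 run of lower genes, and the 2 runs of higher genes on chromosome 18 were found under every run rule tried. Calls of limma stayed at 0 in each fit: with the replicate block over both sets, without it, and without each library in turn (0 to 0, with 330 to 677 rows at an unadjusted p under 0.05). Leaving out the block did not remove the pairing, because each value was still a ratio with its own set's wild-type library as denominator. Whether the pairing changed any call was therefore not tested. Fits over both sets also rest on the unsettled match of set 2 values to gene names. Calls that stay at 0 across them do not show that the result is stable. Depth is unknown, so genes with few reads could not be set apart.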
